A study of Mus musculus with 6 samples.

Results

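The genes described here make, break down or sense prostaglandins and leukotrienes, and they were compared in articular cartilage of 2-month and 18-month mice. They are Ptgs1, Ptgs2, Ptges, Ptgis, Hpgd, Ptger1, Ptger2, Ptger4, Alox5 and Alox5ap, chosen by name as the rows whose gene name is in this list, and they make up 10 of the 33971 genes listed. The series holds 6 RNA-seq libraries, 3 from wild-type (WT) mice aged 2 months and 3 from WT mice aged 18 months, with cartilage as the labelled tissue and no treatment or other allele named. The study's methods state that male mice were used. The strain, and whether a library holds cartilage of 1 animal or of several, are not given in the sources used here, so p-values measure the spread between these libraries.

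Prostaglandins and leukotrienes are short-lived lipid signals made from arachidonic acid, which phospholipase A2 enzymes cut from membranes. Cyclooxygenases turn it into prostaglandin H, from which separate terminal synthases make prostaglandin E, prostacyclin and thromboxane. Alternatively, 5-lipoxygenase, helped by its activating protein, turns it into leukotrienes, a step best known from neutrophils, macrophages and mast cells. In joints, prostaglandin E is known for its part in pain and inflammation, and cyclooxygenases are the targets of common anti-inflammatory drugs.

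The 10 genes did not differ in a common direction between the ages. Ptgs2, Ptges, Ptgis and Hpgd, which make prostaglandins or break them down, were lower at 18 months by 3.38-fold to 14.6-fold. Alox5, Alox5ap, Ptger2 and Ptger4 were higher by 3.14-fold to 33.4-fold. Ptgs1 and Ptger1 were not called in either direction. A gene was called when edgeR's quasi-likelihood test gave a Benjamini-Hochberg adjusted p under 0.05 and its log2 fold change, 18-month against 2-month, lay above 1 or below -1. All 10 genes passed the filter on low counts, and 4 were called higher and 4 lower. Over all 20397 genes tested, 14.9% were called higher and 21.3% lower, 36.3% in all, so calls are common in this comparison. An adjusted p under 0.05 at any fold change was reached by 8 of the 10, beside 51.3% of all genes. The levels are FPKM, fragments corrected for the length of the transcript and the size of the library. FPKM of the ages did not overlap for 8 of the 10 genes, with 4 above and 4 below at 18 months, beside 68.4% of all genes tested, 35.6% above and 32.8% below. The median log2 fold change was 0.01 over the 10 genes and -0.02 over all genes tested.

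**Figure D1:**
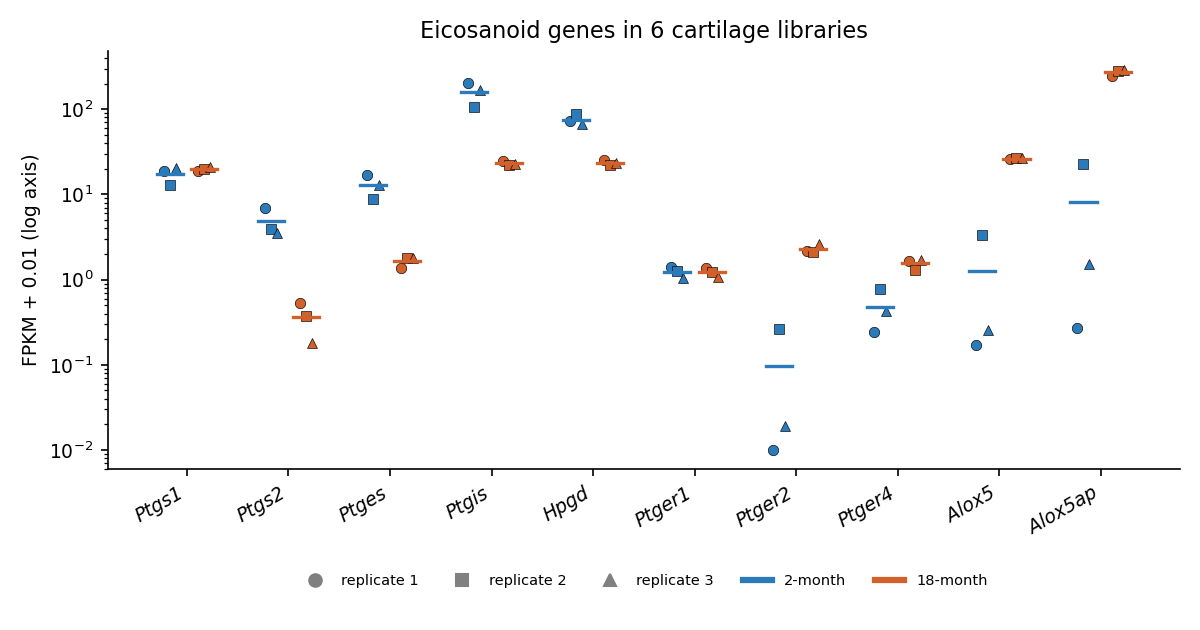
FPKM plus 0.01 of each of the 10 genes on a log axis, with circles, squares and triangles for replicates 1, 2 and 3 and lines at the means of the 3 libraries of each age. The 4 genes Ptgs2, Ptges, Ptgis and Hpgd sit lower in every 18-month library, Ptger2, Ptger4, Alox5 and Alox5ap sit higher, and 2-month replicate 2 lies above the other 2-month libraries for those 4.

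The libraries held 48171507 to 59085179 counts. Counts of Xist, the RNA that coats the inactive X chromosome of females, ran from 88239 to 102417 in the 2-month libraries and from 11 to 30 in the 18-month libraries, which goes against male mice for the 2-month libraries, and age and this sex mark cannot be told apart in any comparison below. Markers of cell types also divided the ages. The summed FPKM of 16 chondrocyte markers ran from 14956 to 18567 at 2 months and from 362 to 1727 at 18 months, with 16 of 16 called lower. The summed FPKM of 14 neutrophil markers was 10.1, 4154 and 109 in the 2-month libraries and ran from 42630 to 47606 at 18 months. For these 14 markers edgeR called 0, 3 had an unadjusted p under 0.05, and DESeq2 called 11 higher. In both lists no marker was at 0 in all libraries of an age. In bulk tissue, fewer cells of a type and less RNA per cell cannot be told apart.

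Ptgs1 and Ptgs2 encode the cyclooxygenases, the former known as the constitutive form and the latter as the form induced by cytokines and growth factors. Ptgs1 (ENSMUSG00000047250, GRCm38 chr2:36230426-36252272, plus strand) had 19.0, 13.04 and 20.4 FPKM at 2 months and 18.9, 19.9 and 21.04 FPKM at 18 months. The ranges overlapped, and only 2-month replicate 2 stood below the others. Its means were 17.5 ± 3.92 and 19.95 ± 1.08 FPKM (SD, n = 3 each), a log2 fold change of 0.10 with a 95% interval from -0.44 to 0.64 (edgeR adjusted p = 0.723), an interval that lies between -1 and 1. Ptgs2 (ENSMUSG00000032487, GRCm38 chr1:150100031-150108227, plus strand) had 7.01, 3.94 and 3.53 FPKM at 2 months and 0.523, 0.362 and 0.169 FPKM at 18 months. Every 18-month library lay below every 2-month library, and the count fell from between 909 and 1763 to between 50 and 161. Ptgs2 was 14.6-fold lower at 18 months, a log2 fold change of -3.87 ± 0.52 (SE; edgeR adjusted p = 0.00295), at a mean of 4.83 ± 1.899 against 0.351 ± 0.177 FPKM (SD, n = 3 each).

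The starts of the pair are shown because the genes differ in response. The sequences come from RefSeq on GRCm38.p6 and run from 250 bases before the gene's start to 30 bases from it, that of Ptgs1 on chr2:36230176-36230455 and that of Ptgs2 on chr1:150099781-150100060, both on the plus strand. Capitals mark matches, on either strand, to 6 motifs. These are the common promoter box TATAAA, the E-box with the letters CACGTG, the core of the cAMP response element, which is TGACGT and lies inside the full element with the letters TGACGTCA, the GC box with the letters CCGCCC, and the ETS purine box with the letters GAGGAA.
Ptgs1: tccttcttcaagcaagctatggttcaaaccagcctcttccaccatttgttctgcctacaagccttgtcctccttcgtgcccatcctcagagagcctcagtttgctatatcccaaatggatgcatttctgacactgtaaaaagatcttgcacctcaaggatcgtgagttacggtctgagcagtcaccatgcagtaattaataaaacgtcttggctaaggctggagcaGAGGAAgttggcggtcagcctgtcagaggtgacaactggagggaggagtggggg
Ptgs2: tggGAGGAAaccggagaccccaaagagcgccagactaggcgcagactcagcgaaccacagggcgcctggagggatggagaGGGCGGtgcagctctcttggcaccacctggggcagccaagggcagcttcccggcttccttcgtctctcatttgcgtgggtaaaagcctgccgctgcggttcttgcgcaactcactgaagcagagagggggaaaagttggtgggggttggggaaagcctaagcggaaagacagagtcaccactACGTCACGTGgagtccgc
In Ptgs2 the capitals ACGTCACGTG near the end hold a TGACGT match, read on the other strand, and a CACGTG match that overlap. They lie at positions 12 to 17 and 16 to 21 after the start base, which counts as 0. Among 32851 promoters of the same 300-base window, 7.51% held TGACGT and 7.15% held CACGTG. In Ptgs1 the only match was GAGGAA, at -24 to -19, a motif that 28.3% of promoters held. The Ptgs2 window had 59.3% G and C and that of Ptgs1 50.7%, beside a median of 52.7% over all promoters. A match is a description of the letters, and factor binding was not measured.

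Ptges encodes the inducible microsomal prostaglandin E synthase, and Ptgis encodes prostacyclin synthase. Ptges (ENSMUSG00000050737, GRCm38 chr2:30889471-30903297, minus strand) had 17.1, 8.73 and 12.8 FPKM at 2 months and 1.36, 1.81 and 1.77 FPKM at 18 months. The lowest 2-month library, replicate 2, was still above each 18-month library. Ptges was 8.32-fold lower at 18 months, a log2 fold change of -3.06 ± 0.33 (SE; edgeR adjusted p = 0.00172), with means of 12.9 ± 4.19 and 1.64 ± 0.249 FPKM (SD, n = 3 each). Ptgis (ENSMUSG00000017969, GRCm38 chr2:167191805-167240604, minus strand) was the most abundant of the 10 genes at 2 months, with 202.3, 106.6 and 170.0 FPKM. At 18 months it had 24.6, 21.99 and 22.8 FPKM, below every 2-month library and within a narrow range. Ptgis was 7.37-fold lower, a log2 fold change of -2.88 ± 0.30 (SE; edgeR adjusted p = 0.00162), from 159.6 ± 48.7 to 23.1 ± 1.35 FPKM (SD, n = 3 each). The antisense gene Gm14291, which overlaps Ptgis over 1224 bases, was also called lower (log2 fold change -3.26).

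Hpgd encodes 15-hydroxyprostaglandin dehydrogenase, which starts the breakdown of prostaglandins. It (ENSMUSG00000031613, GRCm38 chr8:56294585-56321043, plus strand) had 72.0, 88.2 and 66.9 FPKM at 2 months and 25.2, 21.97 and 23.4 FPKM at 18 months. The ages did not overlap, and replicate 2, the lowest 2-month library for Ptges and Ptgis, was the highest for Hpgd. Hpgd was 3.38-fold lower at 18 months, a log2 fold change of -1.76 ± 0.11 (SE; edgeR adjusted p = 0.000751). Of the 4 members that were lower, Hpgd had the smallest fold.

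Ptges and Hpgd were both lower, and their starts are shown for comparison with that of Ptgs2, with the same window and marks. For Hpgd, the RefSeq start from which positions are counted lies upstream of the gene start given above. The Ptges sequence is the minus strand of chr2:30903268-30903547, and the Hpgd sequence is the plus strand of chr8:56294302-56294581.
Ptges: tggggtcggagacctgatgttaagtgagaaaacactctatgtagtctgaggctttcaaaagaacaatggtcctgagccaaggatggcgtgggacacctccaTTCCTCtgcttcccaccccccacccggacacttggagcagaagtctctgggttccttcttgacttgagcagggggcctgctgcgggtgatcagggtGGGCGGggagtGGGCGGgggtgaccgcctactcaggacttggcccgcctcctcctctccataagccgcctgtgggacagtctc
Hpgd: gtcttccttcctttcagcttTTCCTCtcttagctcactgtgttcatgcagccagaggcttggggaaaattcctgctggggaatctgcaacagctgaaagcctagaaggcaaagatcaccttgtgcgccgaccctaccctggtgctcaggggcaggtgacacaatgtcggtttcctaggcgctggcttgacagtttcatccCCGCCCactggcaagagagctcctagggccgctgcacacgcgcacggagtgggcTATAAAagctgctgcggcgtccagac
The capitals in Ptges mark 2 GC boxes on the other strand, at -53 to -48 and -42 to -37, and a TTCCTC further out, which is GAGGAA read on the other strand. In Hpgd a TATAAA stands at 4 to 9, a CCGCCC at -50 to -45 and a TTCCTC at -230 to -225. A GC box was in 35.7% and TATAAA in 13.6% of all promoters. A GC box and a GAGGAA were found in the windows of Ptgs2, Ptges and Hpgd, which were lower at 18 months, and in that of Alox5, which was higher.

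Against the summed FPKM of the chondrocyte list, the 4 genes that were lower kept more of their 2-month level in 18-month replicates 2 and 3. In 18-month replicates 1, 2 and 3 the chondrocyte list stood at 10.4%, 2.20% and 2.17% of its 2-month mean, whereas Hpgd stood at 33.3%, 29.0% and 31.0%. Ptgis stood at 15.4%, 13.8% and 14.3% and Ptges at 10.5%, 14.0% and 13.7%. Ptgs2 stood at 10.8%, 7.49% and 3.51%. The list is a sum in which Prg4 alone held 1389, 272 and 266 of 1727, 367 and 362 FPKM in these libraries. As sums, other marker lists stood above the chondrocyte list. Synovial and tendon fibroblasts stood at 35.7%, 32.9% and 33.7%, and osteoblasts and osteocytes at 40.2%, 38.9% and 38.1%. In the fibroblast list Col1a1 alone held 285, 279 and 286 of 332, 306 and 313 FPKM at 18 months. At 2 months Col1a1 had 29.3, 1420 and 60.0 FPKM, so replicate 2 largely set the 2-month mean. Of the 11 fibroblast markers, 6 were called lower and 2 higher. Smooth muscle and pericytes stood at 54.7%, 54.4% and 47.9%. The chondrocyte list differed between replicate 1 and the other 18-month libraries more than Ptges, Ptgis or Hpgd did. The part of chondrocyte or other cell content in the lower values was not tested.

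**Figure D2:**
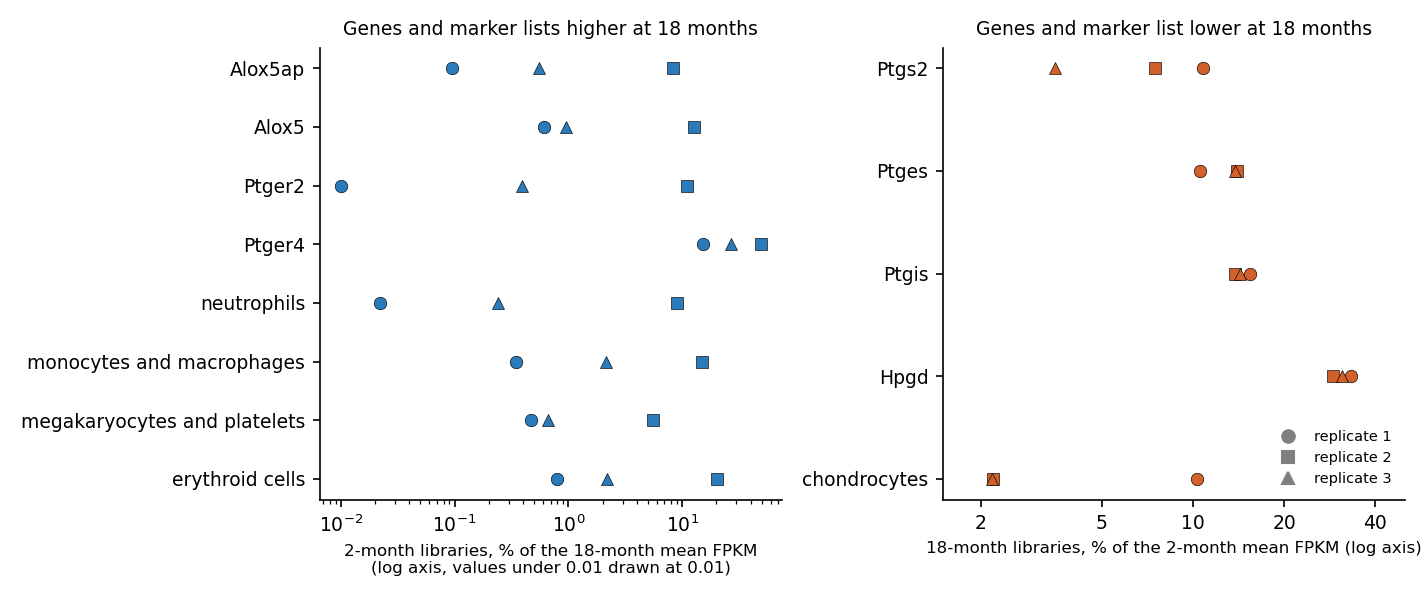
Left, each 2-month library as a percent of the 18-month mean FPKM for the genes that were higher and 4 marker lists. Right, each 18-month library as a percent of the 2-month mean FPKM for the genes that were lower and the chondrocyte list; both axes are logarithmic, values under 0.01% are drawn at 0.01%, and 2-month replicate 2 (squares) is the highest of its age in each row on the left.

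Ptger1, Ptger2 and Ptger4 encode receptors for prostaglandin E, known as EP1, EP2 and EP4. EP2 and EP4 raise cAMP through Gs, and EP1 raises calcium. Ptger1 (ENSMUSG00000019464, GRCm38 chr8:83666678-83672753, plus strand) had 1.39, 1.24 and 1.02 FPKM at 2 months and 1.36, 1.23 and 1.06 FPKM at 18 months. The ranges lay on top of each other, and the log2 fold change was -0.08 with a 95% interval from -0.57 to 0.41 (edgeR adjusted p = 0.752). Ptger2 (ENSMUSG00000037759, GRCm38 chr14:44988195-45003820, plus strand) had counts of 0, 78 and 3 at 2 months and 755, 683 and 857 at 18 months, or 0, 0.253 and 0.00901 FPKM against 2.16, 2.09 and 2.59 FPKM. It was thus at or near 0 in 2-month replicates 1 and 3, and each 18-month library was above all of them. The fitted fold was 25.4, a log2 fold change of 4.67 ± 1.55 (SE; edgeR adjusted p = 0.0481).

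Ptger4 (ENSMUSG00000039942, GRCm38 chr15:5206661-5244172, minus strand) had 0.236, 0.758 and 0.420 FPKM at 2 months and 1.64, 1.298 and 1.71 FPKM at 18 months. The groups did not overlap, and the closest libraries were replicate 2 of each age. Ptger4 was 3.14-fold higher at 18 months, a log2 fold change of 1.65 ± 0.41 (SE; edgeR adjusted p = 0.0199). The higher calls of both receptors depended on single libraries. Without 2-month replicate 3, 18-month replicate 1 or 18-month replicate 3 both were lost, with edgeR adjusted p from 0.0994 to 0.114 for Ptger2 and from 0.0539 to 0.0693 for Ptger4. Ptger2 was also lost without 18-month replicate 2 (edgeR adjusted p = 0.107). Without 2-month replicate 2, its fitted log2 fold change was 8.58 (edgeR adjusted p = 0.00024), a value that rests on 3 counts in the remaining 2-month libraries and is no bound.

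Receptor genes share their place with others, and whether counting used the strand of the libraries is not given in the sources used here. Ptger2 lies wholly inside the antisense gene Gm17173, which was called higher (log2 fold change 3.39). Ptger4 shares 11676 bases with Ttc33 on the opposite strand, which was not called (-0.85). Hpgd overlaps Gm45540 on its own strand over 3606 bases, and that gene was called lower (-2.88). Alox5ap, described next, shares 5117 bases with the antisense gene Gm19719, which was called higher (4.28). The counts of these members are uncertain to that extent.

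Alox5 encodes 5-lipoxygenase, and Alox5ap encodes the membrane protein (FLAP) that hands it arachidonic acid. Alox5 (ENSMUSG00000025701, GRCm38 chr6:116410077-116461178, minus strand) had 0.159, 3.37 and 0.249 FPKM at 2 months and 25.9, 26.6 and 26.4 FPKM at 18 months. The 18-month libraries were nearly equal, whereas 2-month replicate 2 held most of the 2-month signal, 813 counts beside 37 and 58. Alox5 was 20.7-fold higher, a log2 fold change of 4.37 ± 1.23 (SE; edgeR adjusted p = 0.0295). Alox5ap (ENSMUSG00000060063, GRCm38 chr5:149264767-149288153, plus strand) had 0.262, 22.9 and 1.52 FPKM at 2 months and 248.2, 283.8 and 290.3 FPKM at 18 months. It was the most abundant of the 10 genes at 18 months, and the order of the 2-month libraries was the one seen for Alox5. Alox5ap was 33.4-fold higher, a log2 fold change of 5.06 ± 1.597 (SE; edgeR adjusted p = 0.0416).

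The wide errors of both genes came with 2-month replicate 2. Without it the log2 fold changes were 6.88 ± 0.23 for Alox5 (SE; edgeR adjusted p = 4.2e-05) and 8.14 ± 0.84 for Alox5ap (SE; edgeR adjusted p = 0.00066). Without 2-month replicate 3 or any single 18-month library neither was called, with edgeR adjusted p from 0.065 to 0.0711 for Alox5 and from 0.0819 to 0.106 for Alox5ap, at log2 fold changes of at least 3.90 and 4.58. In replicate 2 Alox5 stood at 12.8% and Alox5ap at 8.36% of the 18-month mean, beside 9.09% for the neutrophil list, 15.1% for the list of monocytes and macrophages and 20.3% for erythroid cells. In 2-month replicates 1 and 3 Alox5 stood at 0.605% and 0.945% and Alox5ap at 0.0954% and 0.556%. The list of 12 monocyte and macrophage markers, with 4 called higher, summed to 15.8, 693 and 99.4 FPKM at 2 months and to between 4161 and 5459 FPKM at 18 months. The neutrophil list and the monocyte and macrophage list moved with Alox5 and Alox5ap, while the B lymphocyte and endothelial lists did not. The part of any cell type in the result was not tested.

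The start of Alox5 is shown as the member of the higher group with most kinds of match, in the same window, on the minus strand of chr6:116461149-116461428.
Alox5: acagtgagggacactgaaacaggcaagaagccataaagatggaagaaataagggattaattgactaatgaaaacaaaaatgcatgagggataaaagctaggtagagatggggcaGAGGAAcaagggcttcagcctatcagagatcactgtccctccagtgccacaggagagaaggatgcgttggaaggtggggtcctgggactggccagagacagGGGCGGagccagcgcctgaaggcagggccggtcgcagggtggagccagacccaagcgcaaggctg
Here the capitals mark GAGGAA at -136 to -131 and GGGCGG, a GC box on the other strand, at -35 to -30. Of the 10 genes, 7 had a RefSeq entry in the table used, and in the Ptger2 window, with 37.7% G and C, none of the 6 motifs was found. That of Ptger4 had 67.0% G and C and matched the GC box alone, with the nearest copy at -42 to -37.

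**Figure D3:**
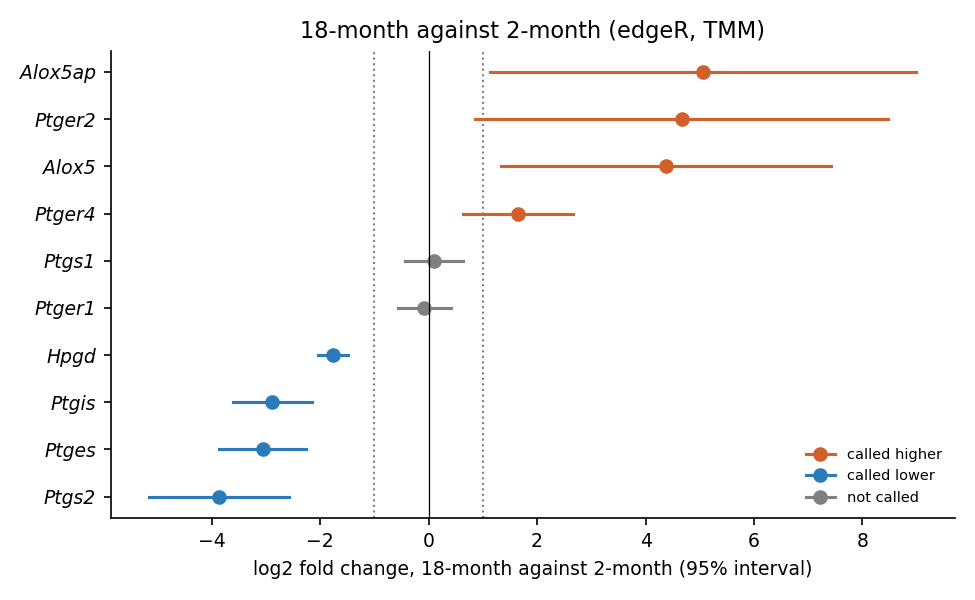
Log2 fold change of each gene, 18-month against 2-month, with its 95% interval from edgeR; dotted lines mark 1 and -1. The intervals of the genes that were lower are short, from -5.16 to -1.48 in all, while those of Alox5ap, Ptger2 and Alox5 reach from 0.85 to 8.99.

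FPKM is scaled by length, so levels can be ordered between genes. At 2 months the mean FPKM fell in the order Ptgis, Hpgd, Ptgs1, Ptges, Alox5ap, Ptgs2, Alox5, Ptger1, Ptger4 and Ptger2. Ptgis and Hpgd were apart from their next neighbour in every library. The ranges of Ptgs1, Ptges, Alox5ap, Alox5 and Ptger4 each overlapped the next one, so the order there is loose. At 18 months the order was Alox5ap, Alox5, Hpgd, Ptgis, Ptgs1, Ptger2, Ptges, Ptger4, Ptger1 and Ptgs2. Alox5ap, at 274.1 ± 22.7 FPKM, was apart from Alox5, at 26.3 ± 0.389 FPKM, and Hpgd and Ptgis overlapped at 23.5 ± 1.602 and 23.1 ± 1.35 FPKM (SD, n = 3 each). Ptges and Ptger4 also overlapped at 18 months, as did Ptger4 and Ptger1. Ptgs2 moved from the middle of the order to its end.

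Apart from a constant added to FPKM, ratios within a library do not depend on the scaling between libraries. They can still depend on which cells a library holds, and the part of cell content in them was not tested. The log2 ratio of Ptgs2 to Ptgs1, on FPKM + 0.1, was -1.88 ± 0.558 at 2 months and -5.55 ± 0.690 at 18 months (SD, n = 3 each), so the inducible cyclooxygenase stood lower against the constitutive one in each 18-month library. Ptges to Hpgd went from -2.59 ± 0.653 to -3.77 ± 0.308, and Ptger2 to Ptger4 from -1.76 ± 0.487 to 0.53 ± 0.137. Ptger2 had 0 and 0.00901 FPKM in 2-month replicates 1 and 3, so the added 0.1 largely set its ratios there. Alox5ap to Alox5 went from 1.81 ± 1.18 to 3.37 ± 0.102. In all 4 ratios the ages did not overlap, and each two-sided exact permutation test gave p = 0.1, adjusted over the 4 ratios 0.1, which is the smallest p that 3 against 3 allows. With FPKM + 1 the difference in the Ptger2 to Ptger4 ratio was 0.79 in place of 2.29. The difference in the Alox5ap to Alox5 ratio, 1.56, was 0.90 without 2-month replicate 1 and 2.13 with FPKM + 1.

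**Figure D4:**
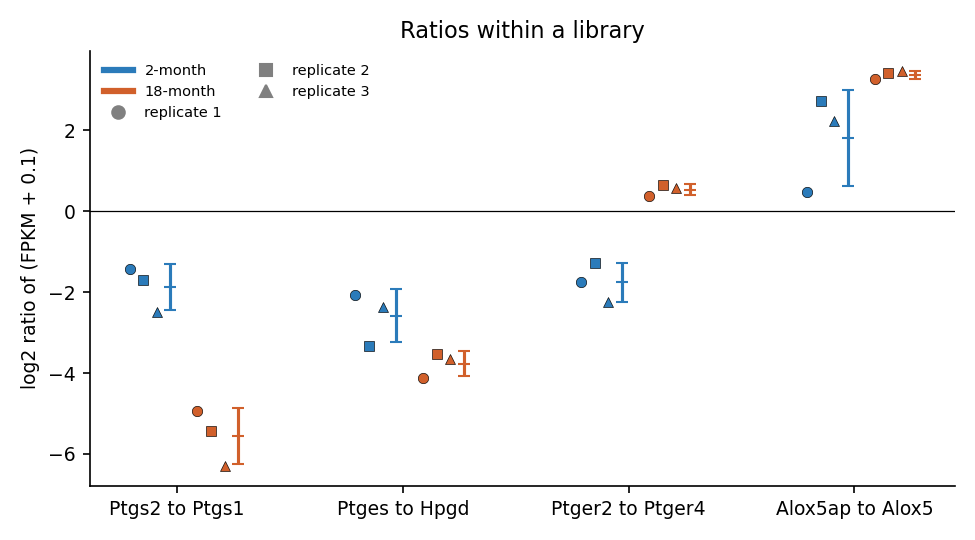
Log2 ratio of FPKM + 0.1 of 2 genes within each library, with circles, squares and triangles for replicates 1, 2 and 3 and bars for the mean ± SD of each age (n = 3). The Ptgs2 to Ptgs1 ratio is lower in each 18-month library, and the Ptger2 to Ptger4 ratio changes from below 0 to above 0.

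The rest of the pathway was described by 7 lists with 52 genes, of which 49 were in the table and 43 were tested. Of these, 17 were called higher and 4 lower, beside 14.9% and 21.3% of all genes, with a median log2 fold change of 1.59. Upstream of all members, phospholipase A2 had 0 of 10 higher and 2 lower, with a median of -0.12. Pla2g5, a secreted form, fell from 31.4 ± 4.57 to 4.25 ± 1.39 FPKM (SD, n = 3 each; log2 fold change -2.97, edgeR adjusted p = 0.0012), while Pla2g4a, the cytosolic form that releases arachidonic acid, had 4.61 and 7.02 FPKM and was not called (0.53). The other terminal synthases had 3 of 8 higher and 2 lower. Tbxas1, thromboxane synthase, rose (log2 fold change 4.17), as did Hpgds, the hematopoietic prostaglandin D synthase (2.58). Ptges2 and Ptges3, the other prostaglandin E synthases, had log2 fold changes of 0.95 and 0.38 and were not called.

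Downstream of Hpgd, Ptgr1, a prostaglandin reductase, rose from 4.67 ± 3.76 to 22.9 ± 2.18 FPKM (SD, n = 3 each; log2 fold change 2.26, edgeR adjusted p = 0.0166), and Abcc4, which exports prostaglandins, also rose (1.72). These were 2 of 5 genes of transport and breakdown, with 0 lower. Beside Ptger2 and Ptger4, the other prostanoid receptors had 2 of 4 called higher, Ptgir, the prostacyclin receptor (4.28), and Ptger3, which encodes EP3 (1.52). Ptgir thus rose where Ptgis, the synthase of its ligand, fell.

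Downstream of Alox5, leukotriene synthesis and breakdown had 4 of 7 genes higher, Dpep2 (log2 fold change 1.59) among them, and 0 lower. Lta4h, which makes leukotriene B4, rose from 7.87 ± 4.76 to 68.8 ± 2.36 FPKM (SD, n = 3 each; log2 fold change 3.08, edgeR adjusted p = 0.00264), and Mgst3 (3.13) and Mgst2 (1.65) rose with it. Ltc4s, leukotriene C4 synthase, had 0.235 and 1.57 FPKM and was not called (edgeR adjusted p = 0.116). Leukotriene receptors had 3 of 4 higher, among them Ltb4r1, the high-affinity leukotriene B4 receptor, at 52.3 ± 6.12 FPKM against 1.85 ± 2.98 FPKM (4.82, edgeR adjusted p = 0.049). Among the other lipoxygenases 3 of 5 were higher, with Alox12, the platelet form, at 38.6 ± 7.88 FPKM against 2.17 ± 0.469 FPKM (4.08, edgeR adjusted p = 0.000751). The megakaryocyte and platelet list, 9 of 10 called higher, summed to 6.62, 78.3 and 9.46 FPKM at 2 months and to 1079 to 1608 FPKM at 18 months, and its part in the Alox12 and Tbxas1 values was not tested. Leaving out 2-month replicate 2 turned the count of 17 into 28, while leaving out 18-month replicate 2 gave 9 and 18-month replicate 3 gave 10. The count of 4 lower became 1 when 2-month replicate 1 was dropped and 2 on dropping 2-month replicate 3, 18-month replicate 1 or 18-month replicate 3.

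**Figure D5:**
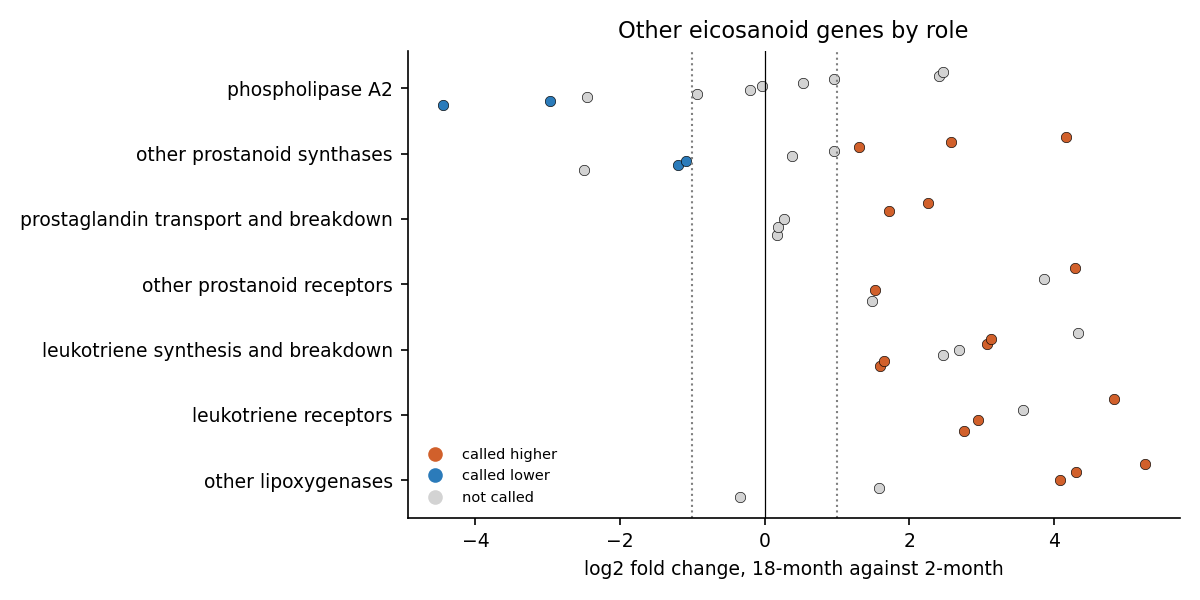
Log2 fold change, 18-month against 2-month, of the 43 tested genes of the 7 lists, 1 point a gene, coloured by call, with dotted lines at 1 and -1. Points of the leukotriene lists lie to the right of 0, while phospholipase A2 genes lie on both sides.

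Genes whose TMM-scaled log2 counts, relative to library size, most resembled those of each member were sought among the 13899 tested genes whose FPKM averaged 1 or more, by Pearson's r over the 6 libraries. These values describe 6 points that share the age contrast. For Alox5 the nearest were Serpinb1a, Arhgap9 and Lmo2 (r = 0.99989, 0.99987 and 0.99979), and for Alox5ap they included Tmsb4x and Gp5 (r = 0.99985 and 0.99978). Ptger2 was nearest to Kif23, Ect2 and Apbb1ip, and Ptger4 to Sh3bp2, Gm38158 and Cd83. Ptgis was nearest to Mbnl2, Laptm4a and Ppm1k, Ptges to Slc36a4, Rab23 and Hint3, Hpgd to Smurf2, Fjx1 and Gpc1, and Ptgs2 to Gpt2, Rubcn and Slc41a2. For Ptgs1, which did not follow the ages, the nearest was Cmc4 (r = 0.984), and for Ptger1 it was Sms (r = 0.969). With the mean of each age removed, 1 of 3 nearest genes was shared for Ptgs2 (Gpt2), Ptger2 (Ect2) and Alox5ap (Tmsb4x), and 0 of 3 for the other 7 members.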

How the data were processed

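Gene expression in articular cartilage came from 3 RNA-seq libraries of 2-month and 3 of 18-month WT mice, grouped by their labels. Libraries were poly(A)-selected, strand-specific and paired-end. For each gene the authors deposited raw counts as whole numbers, and FPKM scaled by transcript length and by the library's fragments. The submitters' processing notes name cutadapt 1.9, HISAT2 2.0.4, UMI-tools, StringTie 1.3.4d, DESeq2 and edgeR, without their roles. The table also annotates genes, and 0 columns of values per library were left out. Of the 33971 genes, 33865 were found in GENCODE M21 (GRCm38), 30925 with identical coordinates.

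The count test was edgeR 4.0.16 under R 4.3.3 (TMM, filterByExpr, quasi-likelihood test). Benjamini-Hochberg adjustment ran across all 20397 genes that passed the filter. Dividing the log2 fold change by the root of F gave its standard error. Ratios used FPKM + 0.1. Scripts were tested on simulated data with 200 changed genes. The alternatives were median-of-ratios size factors, total counts, no filter, DESeq2 1.42.0, limma 3.58.1 on log2(FPKM + 0.1) and log2(FPKM + 1) with a mean FPKM of at least 0.1, glmTreat against a fold change of 2, a replicate block, FPKM + 1 in the ratios and leaving out each library in turn. No pair of libraries of an age agreed within sampling noise. After scaling by total counts, the median squared difference relative to expected counts was 6.32 to 48.7 times that of counting alone. It was lowest for 18-month replicates 2 and 3. Counting error is small beside the differences between libraries at 48171507 to 59085179 counts a library.

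The text names all 10 members, genes of 7 pathway lists that were called or had a mean FPKM of at least 1, and the 3 genes nearest to each member, or fewer. Some genes that the rule covers are not reported here. Other genes named are those that overlap a member, and a few low pathway genes chosen after their values were seen. The members and lists were chosen with earlier results of these data known. There were 12 marker lists for cell types, some without their calls given beside a result. Of their tested genes, 3 of 9 were called higher for erythroid cells, 2 of 6 for mast cells and basophils and 0 of 8 for B lymphocytes. The counts were 5 of 9 for T and NK lymphocytes and 2 of 9 for endothelial cells. Synovial and tendon fibroblasts had 2 of 11 higher and 6 lower, osteoblasts and osteocytes 3 of 9 lower, and smooth muscle and pericytes 2 of 8 lower. Promoters and their motifs were read from a RefSeq table on GRCm38.p6.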

Additional observations from a re-analysis of the deposited data

How the results depend on the processing

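Ptgs2, Ptges, Ptgis and Hpgd were called lower under each of the 14 alternatives, with log2 fold changes from -4.23 to -1.64. The call of a member that was higher was lost in 24 of its settings, 8 for Ptger2, 6 for Alox5ap and 5 each for Alox5 and Ptger4, and its direction held in each. The members called higher, 4 in all, were 2 with no filter on low counts, 0 with glmTreat against a fold change of 2 and from 0 to 4 when 1 library was left out. Pathway genes called higher, 17, were 8 with glmTreat and from 9 to 28 when 1 library was left out. Pathway genes called lower, 4, were 2 with no filter, 1 with limma on log2(FPKM + 1), 1 with glmTreat and from 1 to 5 when 1 library was left out. All genes called, 7401, were 4033 with glmTreat. The share of higher calls among all calls, 41.2%, was 57.8% with limma on log2(FPKM + 1) and 52.2% without 2-month replicate 2. The Ptgs2 to Ptgs1 difference in log2 ratio, -3.68, was -2.27 with FPKM + 1, and that of Ptger2 to Ptger4, 2.29, was 0.79. When 1 library was left out, the 2 members with no call ran from -0.08 to 0.25 (Ptgs1) and from -0.17 to 0.05 (Ptger1). They changed sign in places, Ptger1 to 0.0013 with limma on log2(FPKM + 0.1), 0.049 without 2-month replicate 1 and 0.0048 without 18-month replicate 3, and Ptgs1 to -0.078 without 2-month replicate 2. The cause of these changes between settings was not tested. Deviations of libraries with the same replicate number had r of 0.02, 0.04 and -0.01. For different numbers r ran from -0.039 to 0.035. The labels do not say whether the numbers pair libraries, and these r, of like size, cannot settle it. With the replicate block, 3 members were called higher (Ptger2 was lost, edgeR adjusted p = 0.06), 4 lower, and 14 and 2 pathway genes. The low counts of Ptger2 at 2 months limit its fold.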

Other observations

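Arachidonic acid metabolism, as the KEGG column of the deposited table lists it, also holds genes outside the lists above. This column was looked at after seeing the data. It held 47 genes, 5 of them members. Of the 39 tested, 9 were called higher and 13 lower, beside 14.9% and 21.3% of all genes tested. Their median log2 fold change was -0.04. Glutathione peroxidases, which reduce lipid and other peroxides, divided. Gpx3, the secreted form, fell from 733 ± 234 to 196 ± 58.5 FPKM (SD, n = 3 each; log2 fold change -2.01, edgeR adjusted p = 0.00726), and Gpx8 from 92.9 ± 7.98 to 16.4 ± 3.66 FPKM (-2.58, edgeR adjusted p = 0.000901). Gpx7 also fell (-2.72), whereas Gpx1, the cytosolic form, rose from 96.8 ± 44.8 to 564 ± 2.45 FPKM (2.49, edgeR adjusted p = 0.00227). Ephx2, the soluble epoxide hydrolase, which breaks down epoxides made from arachidonic acid, fell from 7.18 ± 1.57 to 1.33 ± 0.131 FPKM (-2.51, edgeR adjusted p = 0.00119). Pla2g2a, a secreted phospholipase A2, fell as well (-3.36, edgeR adjusted p = 0.0357). These genes were chosen after their values were seen.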
